A study of Mus musculus with 4 samples.

Results

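The genes described here are Arid5b, Abhd2, Apba1, Bai1 (the older symbol of Adgrb1), Akt1, Qk, Sh3pxd2a and Ccm2l, 8 of the 25181 gene names in the deposited table. They were chosen because each holds a region that was much more methylated in libraries with Cre than in libraries without it, so these group differences are given as a description and are not tested. Below, a gain is a region that is higher in the Cre libraries and a loss one that is lower, with no test implied. Regions counted for a gene if the table named them for it or if they lay within 3 kb of its outermost named region, which gave 550 of the 849014 regions with a value in every library. Under the symbol itself 7 of the genes were found. The table names no region Ccm2l, and the regions over the RefSeq position of that gene carry the clone name BC020535 and a single gene identifier, so they were taken as Ccm2l by position.

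DNA from the CA1 field of the hippocampus of C57B6/J mice, aged 117 days, was converted with bisulfite and sequenced across the whole genome. The first group, labelled Tet2+f_Camk2aCre (2 libraries, called Cre libraries here), is read as carrying Cre driven by the Camk2a promoter, which is active in excitatory neurons of the forebrain. According to the series text, Tet2 is haploinsufficient in its glutamatergic cells. The second group, labelled Tet2+f (2 libraries, called control libraries), has no Cre in its label, and both groups share the Tet2+f allele. No group carries Cre without Tet2+f, so reduced Tet2 and the presence of Cre cannot be told apart. CA1 tissue also holds glia, interneurons and vessel cells, and a change in a fraction of cells cannot be told apart from a partial change in all of them. Whether the libraries of a group are from different animals is not stated, so the spread between them, on which every p-value rests, may be technical.

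DNA methylation in the mammalian brain is mostly found at CpG dinucleotides. Gene bodies and intergenic DNA are largely methylated, whereas CpG islands, the short CpG-dense stretches at most promoters and inside some genes, are usually free of it. TET2 oxidises 5-methylcytosine to 5-hydroxymethylcytosine and further forms, a step towards demethylation, and bisulfite sequencing reads the first of these products as methylated. The 8 genes have unrelated roles. Arid5b encodes a DNA-binding protein that works with a histone demethylase, and Qk an RNA-binding protein needed for myelination. Apba1 encodes a synaptic adaptor that binds the amyloid precursor protein, Bai1 an adhesion receptor of synapses and of phagocytosis, and Akt1 a kinase of growth factor signalling. Abhd2 encodes a lipid hydrolase, Sh3pxd2a a scaffold of invasive membrane protrusions, and Ccm2l a relative of the vascular protein CCM2.

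The unit of the table is the region, and where sequence was at hand a region held a nearly constant number of CpGs. Of 1933 regions of at most 300 bp that lie wholly inside a RefSeq promoter window, 87.9% held 24 or 25 CpGs, with a median of 25. Regions of that length are therefore CpG-dense there, and 5.17% of all regions were under 500 bp. Of the regions with the largest difference in the 8 genes, 7 were under 500 bp and 5 were under 150 bp. The exception was Abhd2, whose region spanned 3242 bp.

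The table gives no read counts, so the depth behind a level is unknown. Over all regions the mean level was 76.0% and 75.8% in the Cre libraries and 75.7% and 76.1% in the control libraries. The targeted gene, Tet2, stood at 12.0% and 7.82% around its start in the Cre libraries and at 10.7% and 9.30% in the control libraries, a measure that does not show whether the allele was recombined. With limma and Benjamini-Hochberg adjustment, 0 of 849014 regions passed an adjusted p of 0.05 (0% called), with 39068 at an unadjusted p under 0.05, of which 19130 were higher in the Cre libraries. Around the start, the 4 CA1 and excitatory neuron markers lay between 3.13% and 31.8% in the Cre group and between 3.60% and 31.5% in the control group, and the 3 astrocyte markers between 58.4% and 83.1% in the Cre group and between 56.2% and 82.2% in the control group. The 4 oligodendrocyte markers lay between 2.22% and 80.6% in the Cre group and between 2.76% and 79.9% in the control group, with Olig2 at the low end, and the 2 dentate gyrus markers between 2.70% and 8.80% in the Cre group and between 2.94% and 10.5% in the control group. The group difference of these starts had a median of 0.778 points for the neuron list, -0.961 for dentate gyrus, 0.782 for interneurons, 2.23 for astrocytes, 0.0443 for oligodendrocytes, -1.43 for microglia and -3.56 for endothelial cells. Whether cell makeup plays a part in the results below was not tested.

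The only sequences at hand for these genes are promoter windows, and 4 stretches of them, in or beside the gains of Akt1 and Qk, are shown. They come from RefSeq (GRCm38.p6), read on the minus strand, with each CpG in capitals. The first lies in Akt1 (chr12:112674277-112674422), just upstream of an inner RefSeq start of the gene, in a region that is higher in the Cre libraries. The next adjoins it upstream (chr12:112674429-112674526), in a region without a gain. The third lies just upstream of the start of Qk (chr17:10319362-10319456), in a region that was higher in 1 Cre library, and the last farther upstream (chr17:10319459-10319584), beyond the gains of that gene.
Akt1 with gain: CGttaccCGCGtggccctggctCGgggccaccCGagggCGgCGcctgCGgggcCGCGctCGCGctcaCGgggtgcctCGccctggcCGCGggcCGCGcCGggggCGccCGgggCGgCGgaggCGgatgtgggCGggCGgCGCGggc
Akt1 adjoining: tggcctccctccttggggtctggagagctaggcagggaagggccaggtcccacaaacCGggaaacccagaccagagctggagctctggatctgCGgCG
Qk at the start: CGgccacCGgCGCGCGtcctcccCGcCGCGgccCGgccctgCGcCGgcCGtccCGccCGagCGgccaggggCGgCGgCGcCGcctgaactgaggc
Qk upstream: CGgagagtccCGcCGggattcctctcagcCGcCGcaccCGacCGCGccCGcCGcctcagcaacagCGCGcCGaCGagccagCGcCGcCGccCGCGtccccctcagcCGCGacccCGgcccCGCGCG
The Akt1 stretch with a gain, of 146 bases, held 28 CpGs with a GC content of 87.0%, and its 98-base neighbour held 3 CpGs. The Qk stretches were also dense, with 19 CpGs in 95 bases at the start and 25 CpGs in 126 bases farther upstream. The GC box GGGCGG was searched on both strands and counted without overlap. It occurred 3 times in the Akt1 stretch with a gain and 0 times in its neighbour. In Qk it occurred 2 times in the stretch at the start and 1 time in the one farther upstream. It is in 35.7% of 32851 RefSeq promoter windows of 300 bases, and a match is a description of letters only.

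In the region with the largest difference, the 2 Cre libraries exceeded the 2 control libraries in all 8 genes. The difference ran from 23.2 points in Qk to 56.6 points in Arid5b. Over the whole table, 15.9% of regions had both Cre libraries above both control libraries and 16.8% had them below. A gain of at least 20 points without overlap was seen in 178 regions (0.021%) and a loss of that size in 133 (0.0157%). Of those 178 gains, 13 lay in the 8 genes, which is what the choice of genes set out to find. At 30 points there were 30 gains (0.00353%) and 17 losses (0.002%), and 4 of these gains are the regions of Arid5b, Abhd2, Apba1 and Bai1.

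**Figure D1:**
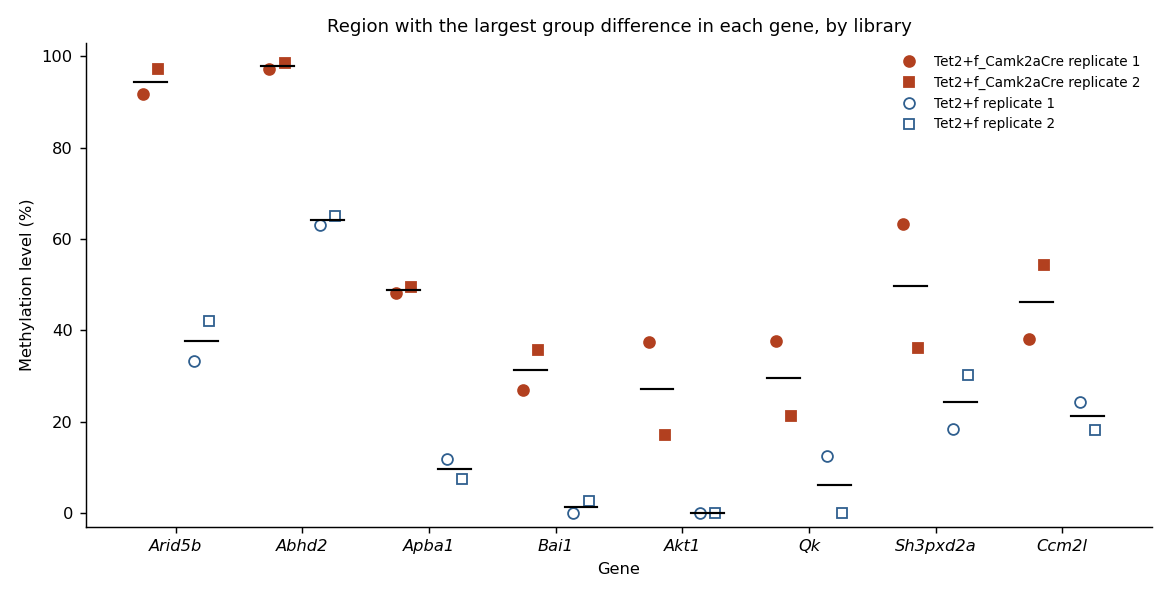
Methylation level (%) of the region with the largest group difference in each of the 8 genes. Filled red symbols are the Cre libraries, open blue symbols the control libraries (circles replicate 1, squares replicate 2), and black bars are group means. The groups are widely separated in Arid5b, Abhd2 and Apba1 and come within 5.90 points of each other in Sh3pxd2a.

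The label of isolated gains held in full for 2 genes of 8. With an adjacent region called quiet when it differed by under 10 points in size, Arid5b and Abhd2 had quiet regions on both sides. Across all regions, 14 gains of at least 30 points had such neighbours (0.00165%), 2 of them those of Arid5b and Abhd2, and so had 12 losses (0.00141%). These counts were 26 to 74 gains and 26 to 44 losses when 1 library was left out. In the other 6 genes the gain extended over 2 or 3 consecutive regions, counting those with no overlap and at least 10 points. Such runs spanned 220 bp in Qk, 237 bp in Bai1, 314 bp in Apba1, 415 bp in Akt1, 757 bp in Sh3pxd2a and 1193 bp in Ccm2l. The position inside a gene also varied. The regions of Akt1 and Qk were centred 684 and 226 bp from the annotated gene start, within the first 3.25% of the gene, and are start regions rather than inner ones. The other 6 lay between 5969 bp (Ccm2l) and 134322 bp (Apba1) into the gene. Whether they are exonic or intronic was not analysed here.

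**Figure D2:**
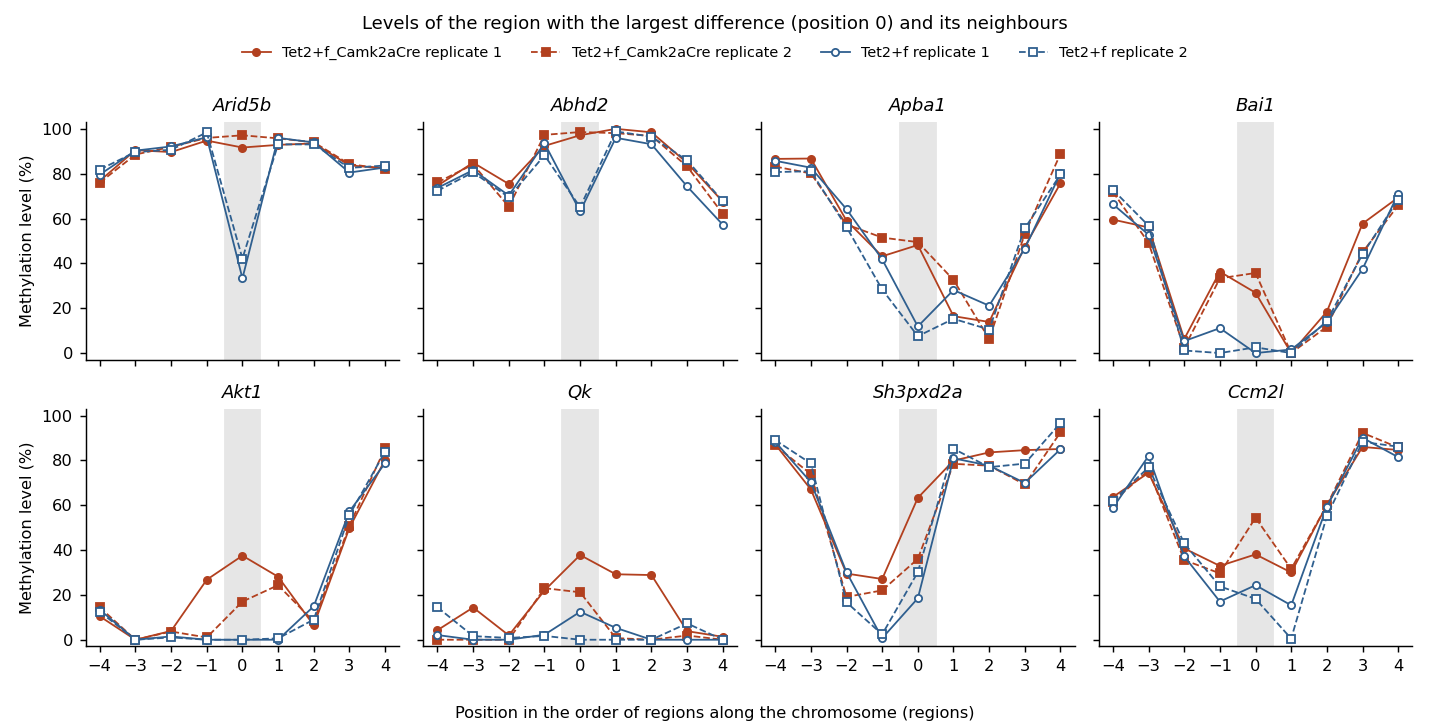
Methylation level (%) of 9 consecutive regions in each gene, with the region of the largest difference at position 0 (grey) and its neighbours in chromosome order on the x axis. Red lines are Cre libraries, blue lines control libraries. In Arid5b and Abhd2 the control libraries dip at 1 region, and in the other 6 genes the Cre libraries stand higher within a stretch that is low in the control libraries.

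Arid5b held the largest gain of all 849014 regions. The region is on chromosome 10 from 68225353 to 68225819 (mm10, 467 bp), 53769 bp into the gene, which lies on the minus strand. A predicted long non-coding RNA, Gm51770, also covers it. Its level was 91.7% and 97.1% in the Cre libraries and 33.3% and 42.2% in the control libraries. The group means were 94.4% ± 3.86 and 37.8% ± 6.25 (SD, n = 2 each), and the nearest libraries of the groups were 49.5 points apart. The region before it was at 94.8% and 95.9% in the Cre libraries and 96.3% and 98.4% in the control libraries. The region after it was at 92.9% and 95.7% in the Cre libraries and 96.0% and 93.1% in the control libraries. The Cre level was thus near that of the flanks, and the control libraries were the ones that departed from them. No other region of Arid5b was more than 6.85 points higher in the Cre libraries, and its largest loss was -8.94 points.

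Abhd2 showed the same arrangement over a longer region. It is on chromosome 7 from 79338200 to 79341441, 66554 bp into the gene on the plus strand. The level was 97.1% and 98.6% in the Cre libraries and 63.1% and 65.1% in the control libraries, a difference of 33.7 points between means of 97.9% ± 1.01 and 64.1% ± 1.36 (SD, n = 2 each). Replicates agreed to within 1.43 points in the Cre group and 1.92 points in the control group. The region before was at 92.4% and 97.3% in the Cre libraries and 93.6% and 88.2% in the control libraries. The region after was at 100% and 98.1% in the Cre libraries and 96.0% and 98.8% in the control libraries. In Abhd2 the Cre level lay within the range of the adjacent regions and the control level below it. The largest loss in the gene, in a region of 1192 bp, was -11.1 points.

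Apba1 had a sharp gain at the edge of an inner low-methylated stretch. The region is on chromosome 19 from 23893066 to 23893190 (125 bp), 134322 bp into the gene on the plus strand. It stood at 48.2% and 49.5% in the Cre libraries and at 11.9% and 7.52% in the control libraries, with means of 48.8% ± 0.917 and 9.69% ± 3.07 (SD, n = 2 each). The group means differed by 39.1 points, and the replicates by 1.30 points in the Cre group and 4.34 points in the control group. On the upstream side, the next 185 bp were at 43.2% and 51.5% in the Cre libraries and at 41.8% and 28.3% in the control libraries. On the downstream side the following 169 bp were at 16.5% and 32.6% in the Cre libraries and 28.1% and 15.3% in the control libraries, so the groups overlapped. Going into the gene, low levels were reached about 1 region later in the Cre libraries. The gene start, a region of 107 bp, was at 0% and 0.667% in the Cre libraries and at 1% and 0% in the control libraries.

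In Bai1 the gain took up 2 regions of an inner stretch that was nearly unmethylated in the control libraries. The region with the largest difference, on chromosome 15 from 74563803 to 74563917 (115 bp), lies 47664 bp into the gene. It was at 26.9% and 35.7% in the Cre libraries and at 0% and 2.56% in the control libraries, with means of 31.3% ± 6.23 and 1.28% ± 1.81 (SD, n = 2 each). The 122 bp before it were at 36.3% and 33.3% in the Cre libraries and at 11.1% and 0% in the control libraries. Both sides closed sharply. The next 178 bp were at 0% in both Cre libraries and at 1.60% and 0% in the control libraries, and the 672 bp before the pair were at 6.25% and 2.31% in the Cre libraries and 5.33% and 1.14% in the control libraries. The gene also held a region of 1251 bp that was lower in the Cre libraries, by -14.0 points. That region was at 42.4% and 65.6% in the Cre libraries and 71.5% and 64.6% in the control libraries, so the groups overlapped.

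Sh3pxd2a and Ccm2l showed wider and less even gains. In Sh3pxd2a the region on chromosome 19 from 47343664 to 47344134 (471 bp) was at 63.3% and 36.1% in the Cre libraries and at 18.5% and 30.2% in the control libraries. Its difference of 25.3 points was smaller than the gap of 27.2 points between the Cre replicates, and leaving out Cre replicate 1 brought it to 11.7 points. The adjacent 280 bp were better separated, at 27.1% and 22.0% in the Cre libraries and 0.694% and 2.38% in the control libraries, a difference of 23.0 points. The region on the other side was lower in the Cre libraries, by -3.87 points. In Ccm2l the region on chromosome 2 from 153071835 to 153071977 (143 bp) was at 38.1% and 54.4% in the Cre libraries and 24.3% and 18.2% in the control libraries. The difference was 24.9 points, and leaving out Cre replicate 2 brought it to 16.8 points. The following 193 bp were at 30% and 31.6% in the Cre libraries and 15.3% and 0.5% in the control libraries. The preceding 857 bp were at 32.9% and 29.6% in the Cre libraries and 17.0% and 23.8% in the control libraries, so a run of 3 regions lay higher in both Cre libraries.

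Akt1 and Qk had their gains at CpG-dense starts that were close to unmethylated in the control libraries. In Akt1, on the minus strand of chromosome 12, the region from 112674140 to 112674259 was at 37.5% and 17.0% in the Cre libraries and at 0% in both control libraries. The region from 112674269 to 112674422, which holds the dense sequence printed above, was at 28.1% and 24.3% in the Cre libraries and at 0% and 0.606% in the control libraries. A RefSeq start of Akt1 lies inside that region at 112674276, and the promoter window of a gene on the other strand, Gm30150, covers the same bases. The region from 112674008 to 112674130 was at 26.8% and 1.02% in the Cre libraries and 0% in both control libraries, so there the gain came from replicate 1. The region over the outer start of Akt1, which holds the CpG-poor neighbour printed above, was lower in the Cre libraries, at 6.42% and 8.14%, against 14.9% and 8.98% in the control libraries.

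In Qk, on the minus strand of chromosome 17, the region from 10319081 to 10319189 was at 37.8% and 21.2% in the Cre libraries and at 12.5% and 0% in the control libraries. The difference was 23.2 points, with 16.6 points between the Cre replicates and 12.5 points between the control replicates. The region from 10318970 to 10319080 was at 22.0% and 23.0% in the Cre libraries and 2.22% and 1.71% in the control libraries, so it was the more even of the pair. In the 2 regions nearer the gene start the gain was in Cre replicate 1 only. The region from 10319190 to 10319292 was at 29.2% and 0.733% in the Cre libraries and 5.30% and 0% in the control libraries. The region over the start itself, from 10319293 to 10319456, was at 28.8% and 0% in the Cre libraries and 0% in both control libraries. The dense upstream sequence printed above lies in a region at 3.83% and 1.88% in the Cre libraries and 0% and 7.29% in the control libraries.

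Replicate 1 of the Cre group stood apart at short regions, among them regions of Akt1 and Qk. Among the 43872 regions under 500 bp, it was at 20% or more with the other 3 libraries under 5% in 218 regions. The same count was 15 for replicate 2 of the Cre group, 24 for replicate 1 of the control group and 17 for replicate 2 of the control group. The region over the Qk start and the third Akt1 region are of this kind, and the regions given for Sh3pxd2a are not. Without that library the differences were 17.0 points in Akt1, 14.9 points in Qk and 11.7 points in Sh3pxd2a, against 27.3, 23.2 and 25.3 points with it. In Ccm2l it was leaving out replicate 2 of the Cre group that lowered the difference, from 24.9 to 16.8 points. In Arid5b, Abhd2, Apba1 and Bai1 the difference was at least 25.6 points whichever library was left out. The regions were chosen by these same values, so this describes the levels and does not test the gains. The part of replicate 1 in the results was not tested further.

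**Figure D3:**
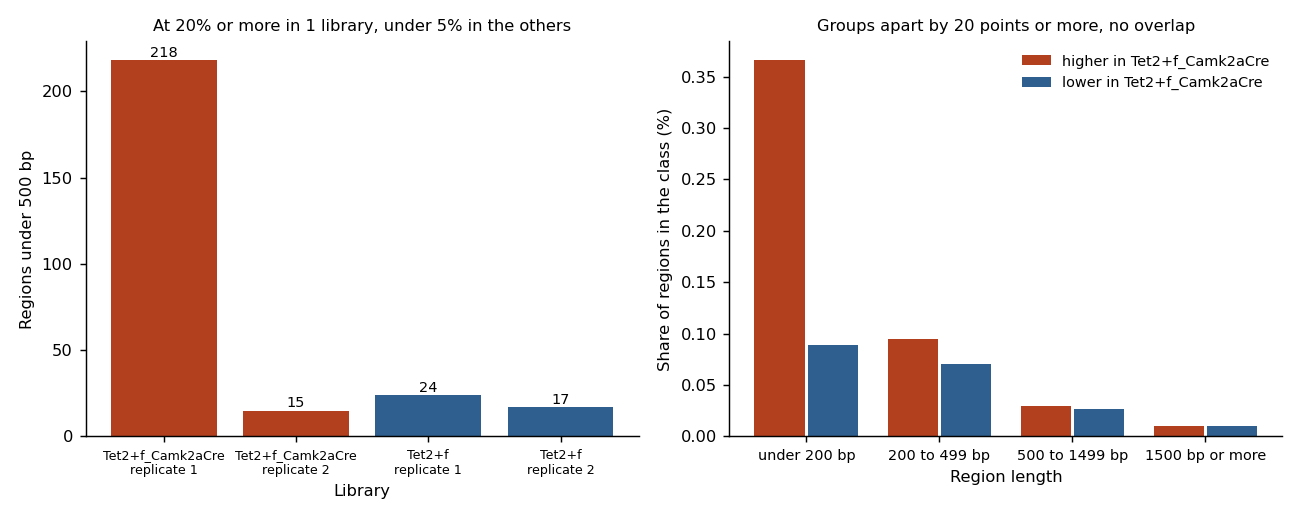
Left, the number of regions under 500 bp at 20% or more in 1 library and under 5% in the other 3, by library (218, 15, 24 and 17). Right, the share of regions (%) in each length class whose groups differed by at least 20 points without overlap, higher (red) or lower (blue) in the Cre libraries. Gains outnumber losses most among regions under 200 bp, 0.366% against 0.0893%.

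Large differences in either direction were most frequent among short regions. Under 200 bp, 41 of 11203 regions had a gain of at least 20 points without overlap and 10 a loss. At 1500 bp or more, 69 of 679595 had a gain and 66 a loss. Short regions at middle levels also differed more between replicates, by the median gap, than those under 5% or over 80%, where it was 0.510 and 2.41 points in the Cre group and 0.510 and 2.42 points in the control group. Among those under 500 bp with a mean level of 15 to 30%, the replicates of the Cre group differed by a median of 7.45 points and those of the control group by 6.98 points. The 95th percentile of that gap was 36.8 points in the Cre group and 25.7 points in the control group. In the regions of the 8 genes the replicates differed by 1.30 to 27.2 points in the Cre group and 0 to 12.5 points in the control group.

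The rest of each gene differed little between the groups on average, although in some genes single regions away from the runs differed by 10 points or more. Without the region of the largest difference, the mean over a gene's regions was higher in the Cre libraries by 3.48 points in Ccm2l, 1.85 in Qk, 1.83 in Akt1, 0.985 in Abhd2, 0.511 in Bai1, 0.406 in Sh3pxd2a and 0.204 in Apba1, and it differed by -0.326 points in Arid5b. Leaving out 1 library turned the sign in Abhd2 (-0.263 to 2.23 points), Sh3pxd2a (-0.108 to 0.920), Apba1 (-0.177 to 0.586) and Arid5b (-0.713 to 0.0605). Where a gain extended over a run, its other regions remain in these means. The median over the other regions was 1.77 points in Ccm2l, 0.568 in Qk, 1.01 in Akt1 and -0.119 in Bai1. It was 1.30 in Abhd2, 0.445 in Apba1, 0.00166 in Sh3pxd2a and -0.233 in Arid5b. In Ccm2l, with 16 other regions, the group means were 64.7% and 61.3% for the Cre and control libraries. In Arid5b, with 101 other regions, they were 73.7% for the Cre libraries and 74.1% for the control libraries. Across the 542 other regions of the 8 genes, 284 (52.4%) were higher on average in the Cre libraries, against 49.2% of all regions. Of the 542, 85 (15.7%, against 15.9% of all regions) had both Cre libraries above both control libraries. Both lay below in 74 (13.7%, against 16.8% of all regions). Gains of at least 10 points without overlap numbered 15 (2.77%, against 0.408% of all regions), of which 8 adjoin a region of the largest difference in the same run. Losses of that size numbered 3 (0.554%, against 0.334% of all regions), in Sh3pxd2a (-13.3 points), Abhd2 (-11.1) and Bai1 (-10.2). The largest loss was -8.24 points in Apba1, -6.14 in Qk, -6.13 in Akt1 and -4.37 in Ccm2l, with the groups overlapping in Qk. Since the genes were chosen from the same contrast, nothing further is read from these counts.

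**Figure D4:**
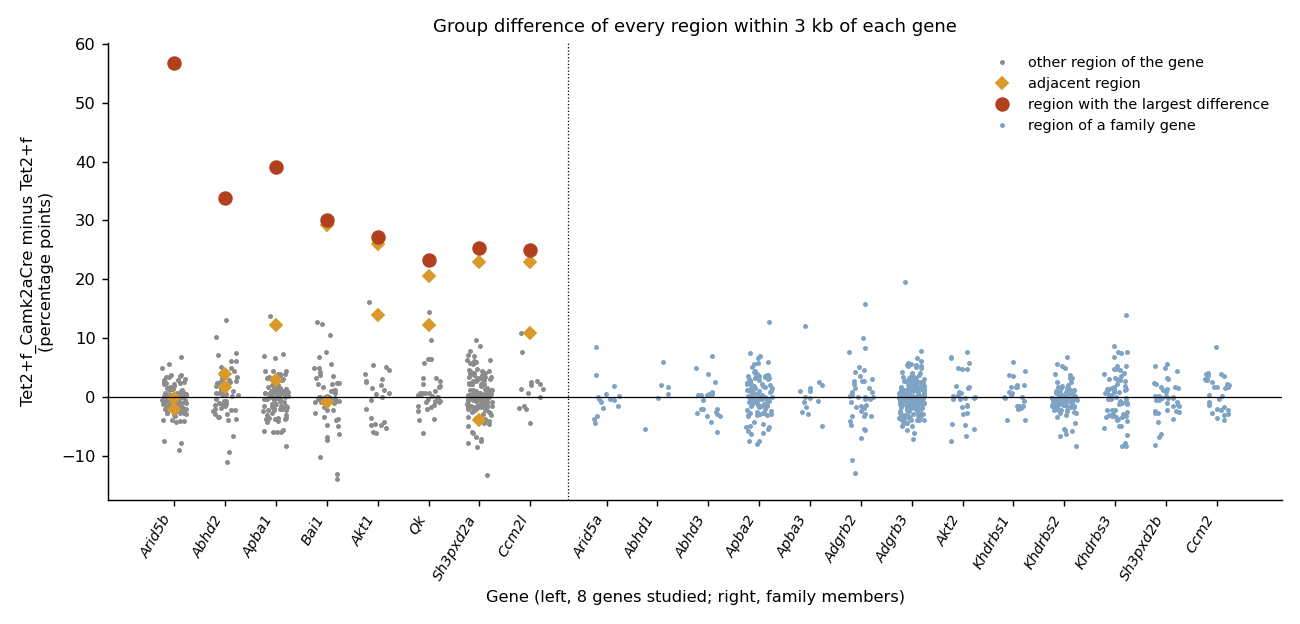
Group difference (Cre minus control, percentage points) of every region of the 8 genes (left of the dotted line) and of 13 family members (right), 1 point per region. Red circles mark the region with the largest difference, orange diamonds its adjacent regions. The 8 red circles lie between 23.2 and 56.6 points, and no region of a family gene exceeds 19.6 points.

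At the outermost annotated start of each gene, Qk alone among the 8 was more than 1 point higher in the mean of the Cre libraries. That difference came from Cre replicate 1 only, with 28.8% and 0% in the Cre libraries and 0% in both control libraries. The gain of Akt1 lay at its inner start. Its outermost start was lower in the Cre libraries by -4.68 points, at 6.42% and 8.14% against 14.9% and 8.98%. The start region of Arid5b was at 0% and 0.416% in the Cre libraries and 0.309% and 0.422% in the control libraries. That of Abhd2 was at 1.34% and 1.23% in the Cre libraries and 0.725% and 0.833% in the control libraries, and that of Sh3pxd2a was at 0% in all 4 libraries. The region of 1440 bp over the Bai1 start was at 18.8% in each Cre library, against 19.6% and 19.7% in the control libraries. That region lies mostly upstream of the start, and the next region into the gene was at 0% in all 4 libraries. The Ccm2l start was methylated, at 70.4% and 78.8% in the Cre libraries and 75.4% and 72.4% in the control libraries.

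Among close relatives of the 8 genes, picked by family and not by their values, 0 of 697 regions in 13 genes had a gain of 20 points without overlap, against 0.021% of all regions. At 10 points, 4 (0.574%, against 0.408% of all regions) were higher and 2 (0.287%, against 0.334%) lower without overlap, and with so few regions nothing particular to the relatives is read from these counts. The gains were in Apba2 (12.8 points), Apba3 (12.1 points), Khdrbs3 (14.0 points) and Adgrb2. Khdrbs3, which like Qk encodes an RNA-binding protein of the STAR family, had its largest gain at a region of 183 bp, at 25.8% and 2.17% in the Cre libraries and 0% in both control libraries. Akt2, another AKT kinase, was higher by at most 7.67 points in any region, and Ccm2 by 8.54 points. The highest value among relatives, 19.6 points in Adgrb3, came from a region of 7021 bp at 84.0% and 100% in the Cre libraries and 48.1% and 96.7% in the control libraries, so the groups overlapped.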

How the data were processed

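Percent methylation per region and library was deposited by the authors in 1 table of 849172 regions. The submitters' processing notes name mm10 as the build, Bismark 0.19.0, Trim Galore 0.4.5, FastQC 0.11.5 and, unversioned, edgeR, and assign no role to any. The way regions were set and averaged, and any coverage minimum, is not given in the sources used here. Levels of 5-methylcytosine and 5-hydroxymethylcytosine are read as one.

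Regions lacking a value in any library (158) were left out. Group differences are Cre mean minus control mean in percentage points. limma 3.58.1 in R 4.3.3 was fitted over all regions on log2((level + 0.01) / (1 - level + 0.01)), with Benjamini-Hochberg adjustment at 0.05. A check on simulated data asked only for recovery of raised regions by unadjusted p, so it does not show the power at the adjusted threshold. Gene positions and promoter windows came from RefSeq (GRCm38.p6), and 5 of the 8 genes have a window there. A marker gene's start level was the mean of regions within 250 bp of its start.

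The 8 genes, the family and marker lists and the rules were chosen with earlier results of these data known, and 2 genes of these lists are not reported here. The text names, for each of the 8 genes, the region with the largest gain, its neighbours, the largest loss and the region at the gene start. Some of the family members are named by their gains, and isolated changes by size.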

Additional observations from a re-analysis of the deposited data

How the results depend on the processing

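No region passed limma's adjusted threshold with a replicate block (0 regions), without any 1 library (0 to 0), with an offset of 0.05, on the percent scale or on autosomes. Among regions of 500 bp or longer 5 passed, all lower in the Cre libraries, all at 100% in both control libraries and 0 of them a region of the largest difference in the 8 genes. Of these 5, 1 lies in Il1rapl2, 1 in the predicted gene Gm10598 and the others in no named gene. Same-numbered replicates deviated with a correlation of 0.00648 and were not taken as pairs.

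With 1 library left out, the largest difference ranged from 52.2 to 61.1 points in Arid5b, 32.8 to 34.7 in Abhd2, 37.0 to 41.3 in Apba1, 25.6 to 34.4 in Bai1, 17.0 to 37.5 in Akt1, 14.9 to 31.5 in Qk, 11.7 to 39.0 in Sh3pxd2a and 16.8 to 33.1 in Ccm2l. Averaged with both neighbours it was 18.1 points in Arid5b, 13.1 in Abhd2, 18.1 in Apba1 and 19.5 in Bai1. For the other regions, the mean turned to 0.233 points in Arid5b with the largest region kept, and to 1.02 in Bai1 and 4.74 in Ccm2l. Weighted by length it was 0.125 in Bai1, 0.173 in Akt1, 0.897 in Qk and 1.82 in Ccm2l. For Ccm2l it was 4.63 points over its named regions and 2.32 with a flank of 10 kb.

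Isolated gains of 30 points with both adjacent regions under 10 points numbered 14, and losses 12. With neighbours under 5 points there were 8 and 6, at 20 points 98 and 86, and at 40 points 4 and 2, and 7 losses were 500 bp or longer. Without replicates 1 and 2 of the Cre group there were 34 and 74 gains and 34 and 44 losses, and without replicates 1 and 2 of the control group 26 and 59 gains and 26 and 31 losses. Fewer libraries make no overlap easier to meet. The cause of the other shifts was not tested. With no read counts, the precision of a single level is unknown.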

Other observations

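Of the 14 gains of at least 30 points with quiet neighbours, 7 lie in a gene, as do 6 of the 12 such losses. In Gnas, an imprinted locus of a stimulatory G protein subunit, a region of 277 bp was at 56.2% and 69.0% in the Cre libraries and at 29.8% and 6.67% in the control libraries. In Nox4, which encodes an NADPH oxidase, a region of 6604 bp was at 80.4% and 95.4% in the Cre libraries and 72.2% and 31.4% in the control libraries. The other gains in genes outside the 8 with names other than predicted ones were in Vmn1r135, a vomeronasal receptor gene, and in the clone-named AL806517.1, at 31.9 and 41.0 points.

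Among the losses, a region of 177 bp in Adcy1, an adenylate cyclase of neurons, was at 0% in both Cre libraries and at 47.8% and 29.5% in the control libraries. A region of 145 bp in Atxn2l was at 0% in both Cre libraries and at 100% and 2.70% in the control libraries, so the loss rests on 1 control library. In Bcor, an X-linked corepressor gene, a region of 425 bp was at 40.5% and 63.9% in the Cre libraries and 90.4% and 75.5% in the control libraries. Another region of Bcor, of 592 bp, was at 12.8% and 32.4% in the Cre libraries and 57.2% and 51.5% in the control libraries.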
